A study of Mus musculus with 88 samples.

Results

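Pou5f1, Sox2, Sall4, Utf1, Lin28a and Lin28b were followed across the 26 RNA-seq libraries of a mouse embryonic stem cell (ESC) study. The 6 genes were taken by name from a table with 21848 distinct gene names, and each stood at 1 locus. Pou5f1 encodes OCT4, which binds DNA together with SOX2, and this pair switches on many genes of the pluripotent state. SALL4 is a zinc finger protein that acts with them and also recruits the NuRD chromatin complex, and UTF1 is a chromatin protein of undifferentiated cells. LIN28A and LIN28B are related RNA-binding proteins that block the processing of let-7 microRNAs and bind many mRNAs.

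All ESC lines were F1 hybrids of a 129X1/SvJ cross, with MSM/Ms mice (the MSM cross) or with C57BL6 mice (the B6 cross). The MSM cross gave 10 libraries. These were 1 fibroblast library labelled 2i-MEF (line 15, XX), 2 of mouse embryonic fibroblasts (MEF), 1 of ESC line 15 labelled 2i-S (XX), 4 from 2i-cultured ESC (lines 15 and 2, XX, and 20 and 23, XY) and 2 from ESC labelled S (line 8, XX, and line 12, XY). The B6 cross gave 16 ESC libraries, with 2 XX and 2 XY lines in each of a2i, t2i, 2i and serum. As background on the study, 2i blocks the kinases MEK (upstream of ERK) and GSK3. In t2i the dose of MEK inhibitor is lowered, a2i blocks Src where 2i blocks MEK, and S is read as serum medium. Labelled passage was 3 for these ESC lines, 3 with 14 further passages for 2i-S, 1 for MEF, and 5 with 1 further passage for 2i-MEF. Line 15 supplied the 2i, 2i-S and 2i-MEF libraries, so passage, medium history and line cannot be told apart in comparisons with 2i-S or 2i-MEF. The labels give each MEF library conflicting sexes, so MEF libraries carried no sex. The 62 bisulfite samples of the series were not analysed here.

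Levels are RPKM (mapped reads scaled for the length of the transcript and the size of the library), which are per length and so can be compared between genes. Read counts were not used here and depth is unknown. RPKM summed to 624274 to 934309 per library, libraries of 1 group and sex correlated at 0.987 to 0.996 across genes, and no pair of libraries was identical. Nanog, an ESC marker, stood at 139.7 to 677 RPKM in the ESC libraries and at 0.173 to 0.246 RPKM in MEF and 2i-MEF. All 16 fibroblast markers were at least 1 RPKM in every B6 serum library, where they summed to 1298 to 1906 RPKM, against 2.66 to 14.4 RPKM in the other B6 libraries and 17267 to 17848 RPKM in MEF. From these markers, serum libraries of the B6 cross held 8.54% to 13.4% of the MEF level and the other B6 libraries at most 0.0216%. The S and 2i-S libraries of the MSM cross held 0.435% to 1.41%. In B6 2i against serum, 16 of 16 fibroblast and 5 of 6 primitive endoderm marker genes tested were lower. So were 4 of 6 trophectoderm and 3 of 3 mesoderm and neural marker genes, where 30.7% of all genes were lower. Markers such as Postn, Dcn, Prrx1, Dab2 and Pdgfra passed the filter on low values only through serum libraries and so had to be lower. The counts are therefore a description. Col4a1, Dab2 and Pdgfra also averaged 517, 78.4 and 41.4 RPKM in MEF, so they do not mark primitive endoderm alone. Of 3 Y-linked genes (Ddx3y, Eif2s3y and Uty), the summed level was 2.54 to 3.25 RPKM in B6 serum XX lines and at most 0.0495 RPKM in the other B6 XX lines. It was 9.53 to 19.8 RPKM in t2i XY lines and 32.6 to 47.5 RPKM in the other B6 XY lines. The part of these other cell types and of Y-linked levels in the results below was not tested, except where a value with the fibroblast share removed is given. That removal takes the share of the MEF level off each gene and divides the rest by 1 minus the share.

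Across the 23 ESC libraries the 6 genes fell into 2 kinds. Pou5f1, Sox2 and Sall4 varied little: the highest library stood 1.81, 2.08 and 2.33 times as high as the lowest. Utf1, Lin28a and Lin28b varied 5.69, 16.3 and 13.9 times. The median over 9847 genes with at least 1 RPKM in every ESC library was 2.43 times. Pou5f1 was the most abundant of the 6, with a mean of 1702 ± 244 RPKM (SD, n = 23). Sox2 averaged 191 ± 36.5 RPKM and Utf1 181 ± 92.2 RPKM over the pooled media, but their order changed with medium. Sox2 was the higher in each B6 2i library (135 to 219 against 66.1 to 137 RPKM). Utf1 was the higher in each B6 serum library (274 to 369 against 135 to 187 RPKM). Lin28a averaged 74.4 ± 46.1 RPKM and Sall4 73.0 ± 14.9 RPKM, and their order also changed with medium. Sall4 was the higher in each B6 2i library (47.0 to 80.9 against 11.1 to 50.4 RPKM). Lin28a was the higher in each B6 serum library (73.6 to 139.8 against 57.0 to 69.6 RPKM). Lin28b stood lowest, at 2.66 ± 1.46 RPKM. The lowest Sall4, Utf1, Lin28a and Lin28b levels all came from the same library, the B6 XX line c4 in 2i.

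**Figure D1:**
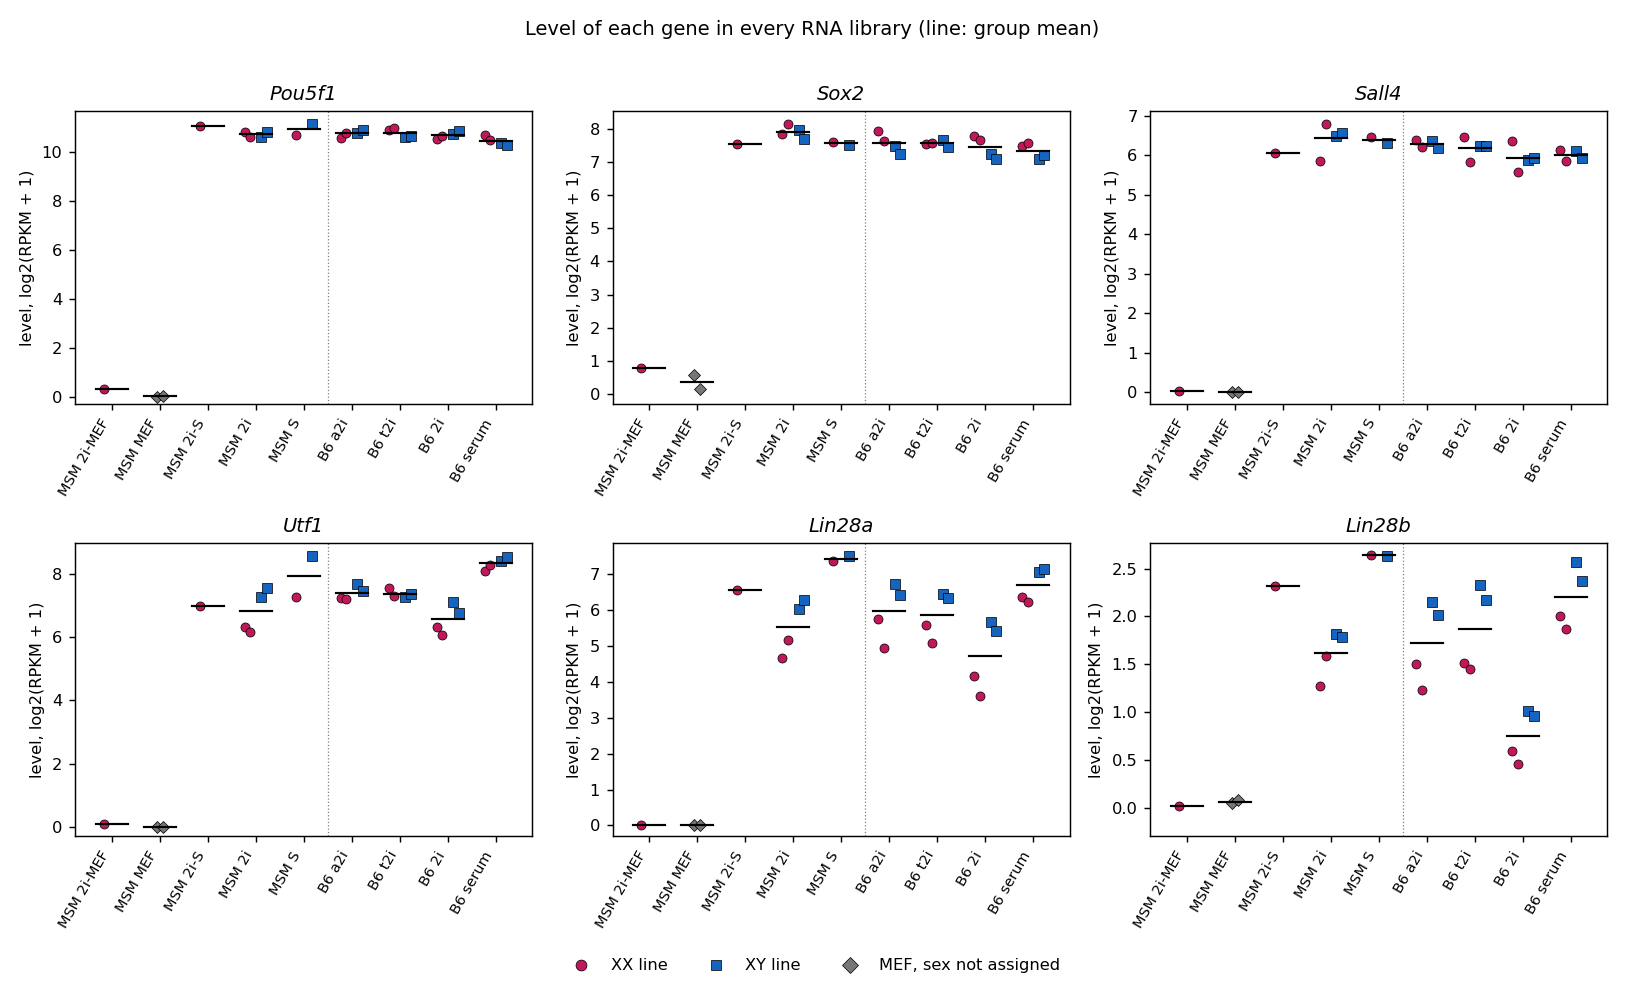
Level of each gene in every RNA library on the log2(RPKM + 1) scale, by cross and medium; circles are XX lines, squares XY lines, diamonds MEF libraries of unassigned sex, black lines group means, and each panel has its own axis. Lin28a ran from 11.1 to 181 RPKM across the ESC libraries and was listed at 0 in MEF and 2i-MEF, while Pou5f1 stood between 1235 and 2233 RPKM in every ESC library.

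The POU factor gene Pou5f1 (ENSMUSG00000024406.16, chr17:35506018-35510772, mm10) differed little between media in the B6 cross. In 2i it stood at 1469 and 1625 RPKM in XX lines c3 and c4 and at 1714 and 1837 RPKM in XY lines c2 and c6. In serum it stood at 1656 and 1435 RPKM in XX lines 17 and 46 and at 1332 and 1235 RPKM in XY lines 10 and 16. The ranges overlapped, with the low values of the serum group in its XY lines. The log2 difference of 2i against serum was 0.24 (SE 0.08, limma adjusted p = 0.031), and a2i and t2i stood 0.30 (adjusted p = 0.013) and 0.32 (adjusted p = 0.0066) above serum. These calls were lost when the fibroblast share was removed (0.06 for 2i, 0.12 for a2i and 0.15 for t2i). Pou5f1 is near 0 in MEF, so here that step only rescales the serum levels upward. The calls were also lost after quantile normalization (0.06, 0.11 and 0.17). The difference of 2i against serum was 0.00 in XX lines and 0.47 in XY lines, and the test of that contrast did not pass (−0.46, adjusted p = 0.10). Leaving out any of lines c4, c6, 16 and 46 ended the call of 2i against serum (0.18 to 0.21), and leaving out any of a4, 16 and 46 ended that of a2i (0.24 to 0.27). In bulk RNA, fewer cells of a type and less RNA per cell cannot be told apart. Pou5f1 has processed copies elsewhere in the genome, and the sources used here do not say how shared reads were counted.

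Sox2 (ENSMUSG00000074637.7, chr3:34650405-34652461), the HMG-box partner of OCT4, did not pass the test in any of the 6 comparisons between B6 media. It averaged 191 ± 39.4 RPKM in a2i, 187 ± 10.8 RPKM in t2i, 176 ± 40.5 RPKM in 2i and 162 ± 24.2 RPKM in serum (SD, n = 4 each). All 4 ranges overlapped. Sox2 lies inside the noncoding gene Sox2ot, and the handling of reads from overlapping genes is likewise not stated. The difference of 2i against serum was 0.11 (95% interval −0.08 to 0.30), and with the fibroblast share removed and the rest rescaled it was −0.07. The closest to a call were a2i against serum (0.23, adjusted p = 0.055) and t2i against serum (0.22, adjusted p = 0.059), which passed without a4 or a3 (0.31 or 0.29) and without a4, a18 or t6 (0.22, 0.22 or 0.27). For t2i against serum, XY lines alone gave 0.41 (adjusted p = 0.024) and XX lines alone 0.03 (adjusted p = 0.87).

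Sall4 (ENSMUSG00000027547.17, chr2:168748332-168767943) also passed no test between B6 media. It averaged 77.2 ± 5.76 RPKM in a2i, 72.6 ± 13.1 RPKM in t2i, 61.2 ± 14.2 RPKM in 2i and 63.5 ± 6.10 RPKM in serum (SD, n = 4 each). The a2i lines, at 71.7 to 82.7 RPKM, lay above all serum lines, at 57.0 to 69.6 RPKM, and the other pairs of media overlapped. The widest difference was a2i against 2i, at 0.36 (95% interval −0.0012 to 0.71, adjusted p = 0.18), and it was called only without line c3 (0.55, adjusted p = 0.032). For 2i against serum the interval ran from −0.43 to 0.28.

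Utf1, Lin28a and Lin28b moved together between media, so their promoters are shown with that of Pou5f1, which hardly moved. Each runs from 250 bases before the RefSeq start to 50 bases after it (GRCm38.p6, the same build as mm10), 5′ to 3′ along the gene, with CpG dinucleotides in capitals. They lie at chr7:139943606-139943905 (+ strand, Utf1), chr4:134018767-134019066 (− strand, Lin28a), chr10:45470152-45470451 (− strand, Lin28b) and chr17:35505782-35506081 (+ strand, Pou5f1).
Utf1: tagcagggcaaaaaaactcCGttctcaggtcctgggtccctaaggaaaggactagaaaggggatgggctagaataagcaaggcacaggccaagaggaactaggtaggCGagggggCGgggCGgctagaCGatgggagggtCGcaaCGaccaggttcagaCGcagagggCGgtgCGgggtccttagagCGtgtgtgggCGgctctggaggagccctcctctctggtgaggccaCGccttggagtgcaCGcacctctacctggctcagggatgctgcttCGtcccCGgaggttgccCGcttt
Lin28a: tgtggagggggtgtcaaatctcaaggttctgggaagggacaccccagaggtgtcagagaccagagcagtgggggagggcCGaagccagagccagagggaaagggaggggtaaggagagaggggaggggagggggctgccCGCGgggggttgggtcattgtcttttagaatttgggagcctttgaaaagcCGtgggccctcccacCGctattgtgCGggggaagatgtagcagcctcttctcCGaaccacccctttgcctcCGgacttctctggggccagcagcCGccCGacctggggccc
Lin28b: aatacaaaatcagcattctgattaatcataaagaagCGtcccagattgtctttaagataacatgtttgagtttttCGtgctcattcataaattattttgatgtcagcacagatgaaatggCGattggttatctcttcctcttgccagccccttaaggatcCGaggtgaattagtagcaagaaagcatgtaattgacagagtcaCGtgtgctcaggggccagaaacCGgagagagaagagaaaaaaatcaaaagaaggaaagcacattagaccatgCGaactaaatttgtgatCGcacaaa
Pou5f1: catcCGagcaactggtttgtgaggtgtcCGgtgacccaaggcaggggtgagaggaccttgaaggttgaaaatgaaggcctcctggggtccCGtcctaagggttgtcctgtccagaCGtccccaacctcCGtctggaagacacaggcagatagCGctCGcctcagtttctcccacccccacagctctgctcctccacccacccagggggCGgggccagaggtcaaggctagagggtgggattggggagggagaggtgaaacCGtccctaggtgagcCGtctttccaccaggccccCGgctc

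The Utf1 promoter holds 17 CpG, that of Pou5f1 11, that of Lin28a 10 and that of Lin28b 8, where the median of 32851 RefSeq promoters of this length is 7. The Sox2 promoter holds 27, and 5 of the 6 genes had a promoter in the table. The GC box GGGCGG, read on both strands, occurs 4 times in the Utf1 promoter, once in that of Lin28a, once in that of Pou5f1 and at 0 places in that of Lin28b, and 35.7% of all promoters hold it. The Lin28b promoter holds CACGTG once (7.15% of promoters), and the Lin28a promoter holds ACAATG, a core letter pattern of SOX proteins, and CTTTGA, one of TCF/LEF proteins, once each (12.6% and 16.0%). GGGCGG and CACGTG each contain a CpG, so they overlap the capitals. The octamer ATGCAAAT is in none of the 5 promoters and in 1.74% of all. These letters are a description of the windows and were not tied to the levels.

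Utf1 (ENSMUSG00000047751.9, chr7:139943789-139945112) was lowest in 2i, intermediate in a2i and t2i and highest in serum. In 2i it stood at 78.1 and 66.1 RPKM in XX lines c3 and c4 and at 137 and 107 RPKM in XY lines c2 and c6. In serum it stood at 274 and 309 RPKM in XX lines 17 and 46 and at 342 and 369 RPKM in XY lines 10 and 16. Every 2i line lay below every serum line, and Utf1 fell by 1.77 on the log2 scale in 2i (SE 0.10, adjusted p = 1.8e-08). In a2i it stood at 146 and 150.3 RPKM in XX lines a4 and a18 and at 204 and 176 RPKM in XY lines a1 and a3. In t2i it stood at 188 and 155 RPKM in XX lines t1 and t3 and at 154 and 165 RPKM in XY lines t2 and t6. Both groups lay above all 2i lines and below all serum lines. Utf1 rose by 0.84 in a2i (SE 0.10, adjusted p = 2.2e-04) and by 0.81 in t2i (SE 0.10, adjusted p = 6.8e-04) against 2i, in comparisons that share the 2i libraries. It stayed 0.94 and 0.96 log2 units below serum, both called (adjusted p = 1.0e-05 and 7.1e-06). The rise in t2i was 1.24 in XX lines and 0.39 in XY lines, where it did not pass (adjusted p = 0.17), and the test of the difference between the sexes gave 0.85 (adjusted p = 0.065).

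Lin28a (ENSMUSG00000050966.9, chr4:134003330-134018841) showed the same order of media, with a further split between the sexes. In 2i it stood at 16.9 and 11.1 RPKM in XX lines c3 and c4 and at 50.4 and 42.2 RPKM in XY lines c2 and c6. In serum it stood at 81.5 and 73.6 RPKM in XX lines 17 and 46 and at 133 and 139.8 RPKM in XY lines 10 and 16. All 2i lines lay below all serum lines, and within each medium both XX lines lay below both XY lines. Lin28a fell by 1.98 in 2i against serum (SE 0.18, adjusted p = 1.7e-06). In a2i it stood at 29.8 and 53.2 RPKM in XX lines a4 and a18 and at 106 and 85.0 RPKM in XY lines a1 and a3. In t2i it stood at 47.4 and 32.9 RPKM in XX lines t1 and t3 and at 86.8 and 79.7 RPKM in XY lines t2 and t6. These groups overlapped those of 2i and of serum when the sexes were pooled, but within a sex they lay above 2i and below serum, without overlap. Lin28a rose by 1.25 in a2i (SE 0.18, adjusted p = 7.3e-04) and by 1.15 in t2i (SE 0.18, adjusted p = 0.0023) against 2i, and stood 0.73 and 0.83 below serum (adjusted p = 0.0067 and 0.0024). In XY lines alone the difference of t2i against 2i (0.84, adjusted p = 0.11) and that of a2i against serum (−0.52, adjusted p = 0.14) did not pass.

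Lin28b (ENSMUSG00000063804.7, chr10:45376620-45470201) followed the same order at a much lower level. In 2i it stood at 0.503 and 0.376 RPKM in XX lines c3 and c4 and at 1.01 and 0.938 RPKM in XY lines c2 and c6. In serum it stood at 3.02 and 2.64 RPKM in XX lines 17 and 46 and at 4.92 and 4.15 RPKM in XY lines 10 and 16. The groups did not overlap, and Lin28b fell by 1.45 in 2i (SE 0.11, adjusted p = 2.7e-07). In a2i it stood at 1.35 and 1.84 RPKM in XX lines a4 and a18 and at 3.43 and 3.05 RPKM in XY lines a1 and a3. In t2i it stood at 1.86 and 1.74 RPKM in XX lines t1 and t3 and at 4.03 and 3.50 RPKM in XY lines t2 and t6. Both groups lay above every 2i line and overlapped serum. Lin28b rose by 0.97 in a2i (SE 0.11, adjusted p = 1.3e-04) and by 1.12 in t2i (SE 0.11, adjusted p = 3.2e-04) against 2i. With a pseudocount of 0.1 RPKM, these values became −2.28 for 2i against serum, 1.64 for a2i and 1.84 for t2i against 2i, since a pseudocount of 1 RPKM understates change at so low a level. The differences of a2i and t2i from serum, −0.47 (adjusted p = 0.0042) and −0.33 (adjusted p = 0.025), were lost after quantile normalization (−0.10 and 0.06) and in XY lines alone (−0.38 and −0.22). That of t2i was also lost without any of lines t3, t6, 10 and 17 (−0.28 to −0.32).

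LIN28 acts on let-7 precursors. As an example of its target, the let-7g hairpin (chr9:106178840-106178927, + strand, RefSeq, GRCm38.p6) is given with the GGAG in its terminal loop, known to be bound by the LIN28 zinc knuckles, in capitals. The mature let-7g-5p follows, with its seed (bases 2 to 8) in capitals. MicroRNA levels were not measured here.
let-7g hairpin: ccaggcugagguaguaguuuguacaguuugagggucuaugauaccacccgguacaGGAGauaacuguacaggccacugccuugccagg
let-7g-5p: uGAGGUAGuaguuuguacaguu

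In counts, 3 of the 6 genes (Utf1, Lin28a and Lin28b) were lower and 1 (Pou5f1) was higher in 2i than in serum, where 30.7% of 13150 tested genes were lower and 16.8% higher. With the fibroblast share removed, 2i against serum was −1.95 for Utf1, −2.15 for Lin28a and −1.59 for Lin28b, all called. These genes are at or near 0 in MEF, so the values differ from those above through the rescaling. After quantile normalization, 2764 of all genes were lower and 3877 higher, against 4042 and 2215 without it, and the median over all genes was 0.08, against −0.09 without it. In a2i against 2i 3 of the 6 were higher, at a background of 7.94%, and in t2i against 2i the same 3 were higher, at a background of 4.19%. Against serum, the same 3 genes were lower and Pou5f1 higher in a2i (25% lower and 12.4% higher among all genes) and in t2i (28.5% and 15.3%). Between a2i and t2i 0 of the 6 genes passed the test in limma, where 1% of all genes were called. Unadjusted p was under 0.05 for 0 of the 6, and the share of all genes at that threshold was not counted. The 95% intervals of a2i against t2i were −0.19 to 0.24 for Utf1, −0.29 to 0.49 for Lin28a and −0.38 to 0.09 for Lin28b.

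**Figure D2:**
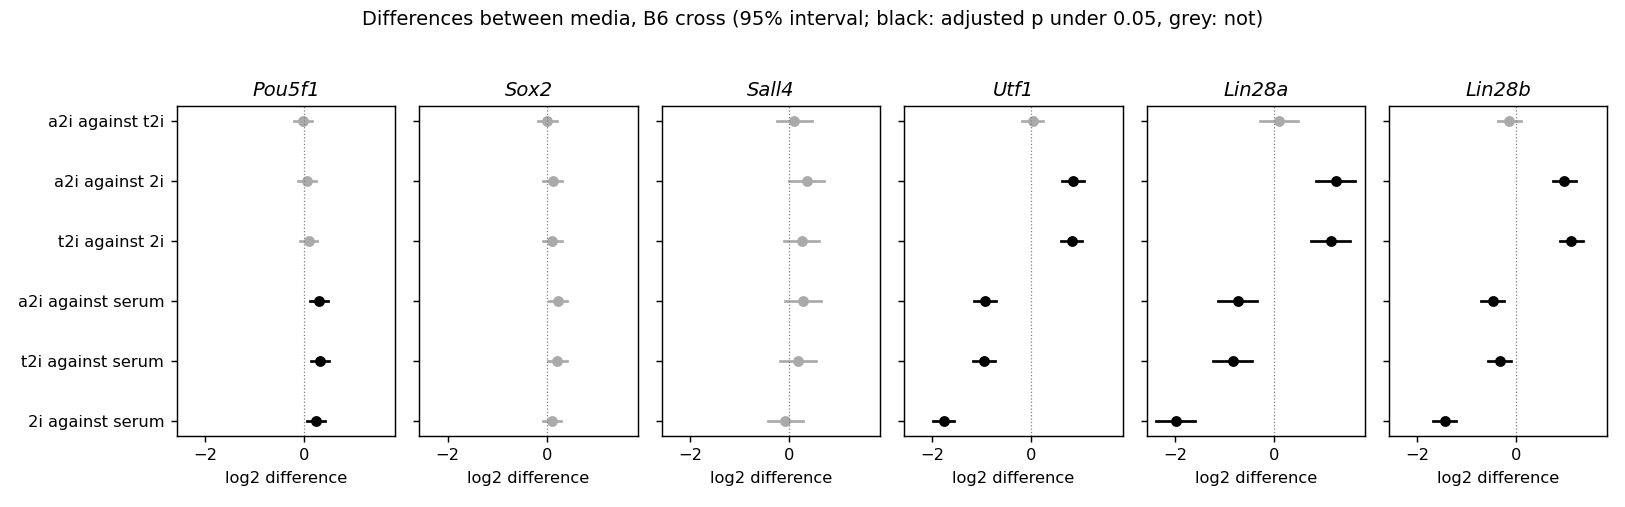
Log2 differences between media in the B6 cross for each gene, with the group named first above the other; points are limma estimates over XX and XY lines, bars 95% intervals, black marks an adjusted p under 0.05. Utf1, Lin28a and Lin28b lie right of 0 in a2i and t2i against 2i and left of 0 against serum, furthest for 2i (−1.77, −1.98 and −1.45). The pseudocount of 1 RPKM understates the Lin28b differences. In mean RPKM, 2i was at 30.0% of serum for Utf1, 28.2% for Lin28a and 19.2% for Lin28b.

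Sex chromosomes went with a further difference in the B6 cross. Over all media (8 XX and 8 XY lines), Lin28a stood 1.19 lower in XX lines (SE 0.13, adjusted p = 1.0e-05), Lin28b 0.62 lower (SE 0.08, adjusted p = 3.9e-05) and Utf1 0.32 lower (SE 0.07, adjusted p = 0.0027), while Sox2 stood 0.33 higher (SE 0.06, adjusted p = 8.6e-04). The share of all genes called lower was 20% and higher 21.4%. Pou5f1 (0.05, 95% interval −0.07 to 0.18) and Sall4 (0.00, 95% interval −0.25 to 0.25) did not pass. None of the 6 genes is X-linked. Lin28a averaged 41.5 RPKM in XX and 95.6 RPKM in XY lines in a2i, 40.1 and 83.3 RPKM in XX and XY lines in t2i, 14.0 and 46.3 RPKM in XX and XY lines in 2i, and 77.6 and 137 RPKM in XX and XY lines in serum. The lines of the sexes did not overlap in any of these media, for Lin28a or Lin28b. With 2 lines per sex and medium this is a description, and the share of all genes without overlap was not counted. Pou5f1 did not overlap either in 2i, t2i and serum, where XX lines averaged 87.1%, 124% and 120% of XY lines. The Lin28a difference passed in a2i (−1.23, adjusted p = 0.0038), t2i (−1.06, adjusted p = 0.012) and 2i (−1.68, adjusted p = 4.7e-04) but not in serum (−0.81, adjusted p = 0.079). Of all genes, 11.5% were lower in XX lines in a2i, 7.89% in t2i, 13.2% in 2i and 1.78% in serum. Lin28b likewise passed in a2i (−0.71), t2i (−0.77) and 2i (−0.46, adjusted p = 0.046), but not in serum (−0.53, adjusted p = 0.057). The pseudocount of 1 RPKM understates the Lin28b difference most in 2i, where its level is lowest. In RPKM, XX lines averaged 49.3% of XY lines in a2i, 47.8% in t2i, 45.2% in 2i and 62.4% in serum. Whether the medium changed these differences was tested for 3 pairs of media (2i against serum, t2i against 2i and a2i against 2i), and 0 of the 6 genes passed in limma, where 8.17%, 1.26% and 4.93% of all genes were called. Unadjusted p was under 0.05 for 3 genes in 2i against serum, 3 in t2i against 2i and 0 in a2i against 2i. The share of all genes at that threshold was not counted, so nothing is read from these counts.

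Sox2 averaged 220 RPKM in XX and 163 RPKM in XY lines in a2i, 211 and 142 RPKM in XX and XY lines in 2i, and 182 and 142 RPKM in XX and XY lines in serum. In t2i it averaged 186 RPKM in XX and 188 RPKM in XY lines. The difference passed in a2i (0.43, adjusted p = 0.023) and 2i (0.56, adjusted p = 0.0053), and not in t2i (−0.01, adjusted p = 0.97) or serum (0.36, adjusted p = 0.11). Of all genes, 16.8% were higher in XX lines in a2i, 11% in t2i, 11.9% in 2i and 5.51% in serum. The sexes overlapped only in t2i, the medium whose XY lines held the low Y-linked RNA given above. A link between them was not tested, and for Lin28a and Lin28b the sexes did not overlap in t2i. Utf1 likewise overlapped between the sexes only in t2i, with averages of 171 RPKM in XX and 159 RPKM in XY lines. It averaged 72.1 RPKM in XX and 122 RPKM in XY lines in 2i (−0.75, adjusted p = 0.0021), the only single medium in which it passed.

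**Figure D3:**
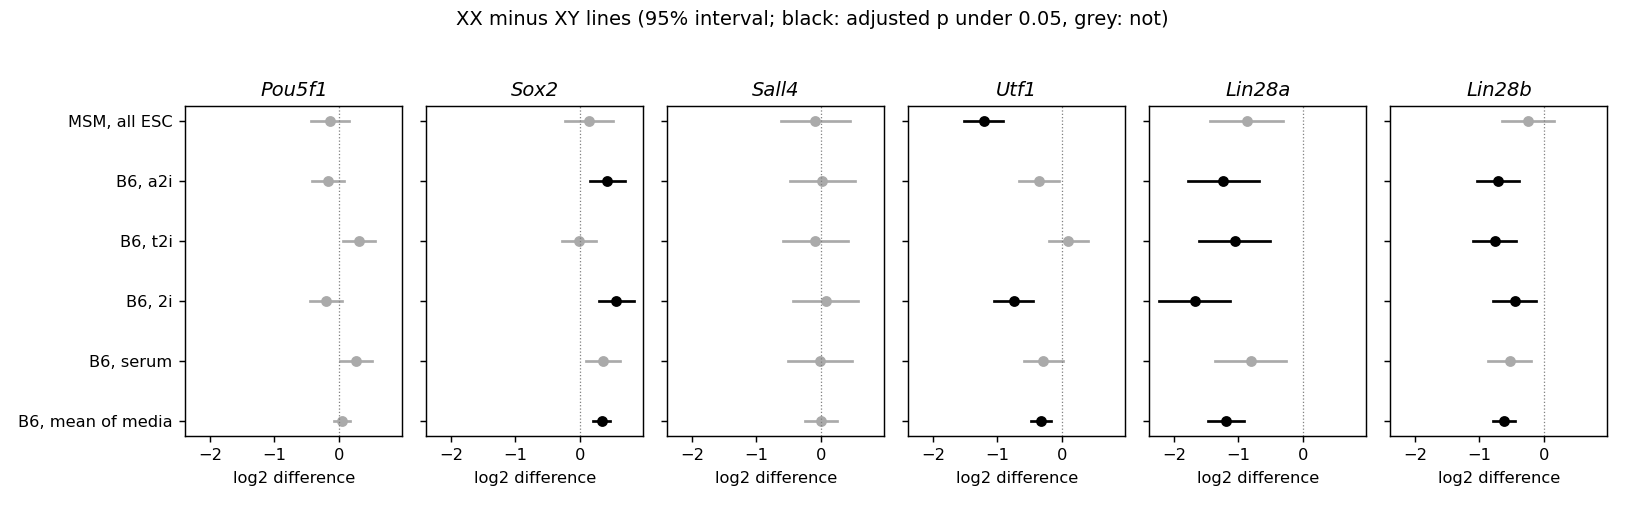
Log2 differences of XX against XY lines for each gene, over the ESC libraries of the MSM cross, within each medium of the B6 cross and over all B6 media; bars are 95% intervals and black marks an adjusted p under 0.05. Lin28a lies left of 0 in every row, from −0.81 in serum to −1.68 in 2i.

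In the MSM cross the same 3 genes were lower in 2i than in S, where 8.67% of 13443 genes were lower and 8.36% higher. Lin28a stood at 24.4, 35.0, 64.8 and 77.2 RPKM in 2i lines 15, 2, 20 and 23 and at 164 and 181 RPKM in S lines 8 and 12. The groups did not overlap, and Lin28a fell by 1.89 (SE 0.26, adjusted p = 0.0039). Lin28b stood at 1.41, 2.00, 2.52 and 2.44 RPKM in the same 2i lines and at 5.23 and 5.21 RPKM in S lines 8 and 12. It did not overlap either and fell by 1.02 (SE 0.19, adjusted p = 0.0098), a call lost without S line 8 (−0.84, adjusted p = 0.089). Utf1 stood at 78.2 and 70.2 RPKM in 2i XX lines 15 and 2 and at 154 and 186 RPKM in 2i XY lines 20 and 23. It stood at 155 RPKM in S XX line 8 and at 376 RPKM in S XY line 12. The groups overlapped across the sexes but not within a sex, and Utf1 fell by 1.10 in a fit with a sex term (SE 0.14, adjusted p = 0.0026). Pou5f1 stood at 1571 to 1816 RPKM in 2i and at 1668 and 2233 RPKM in S, Sox2 at 206 to 281 RPKM in 2i and at 195 and 181 RPKM in S, and Sall4 at 56.8 to 109.7 RPKM in 2i and at 87.7 and 78.5 RPKM in S. For Sox2 alone the ranges did not overlap, and none of the 3 passed (−0.19 for Pou5f1, 0.35 for Sox2 and 0.03 for Sall4; adjusted p = 0.36, 0.19 and 0.94).

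Line 15 stood at 94.4 RPKM for Lin28a, 3.98 RPKM for Lin28b and 126 RPKM for Utf1 in its 2i-S library, against 24.4, 1.41 and 78.2 RPKM in its own 2i library. Lin28a and Lin28b in 2i-S lay above all 4 lines in 2i and below both S lines. Utf1 lay above both XX lines and below both XY lines in 2i. With the lone 2i-S library assumed to vary like the other groups, 0 of the 6 genes passed in limma, where 1.22% of all genes did. The log2 differences of 2i-S against 2i were 0.77 for Utf1, 1.47 for Lin28a and 0.83 for Lin28b. They rest on 1 library, and the 2i group holds line 15 itself. The Lin28a difference was called when S line 8 or S line 12 was left out (1.66 in both fits).

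Fibroblasts carried next to none of these RNAs. Pou5f1 was listed at 0 and 0.0337 RPKM in MEF libraries 2 and 4, Sox2 at 0.503 and 0.105 RPKM and Lin28b at 0.0342 and 0.0526 RPKM, while Sall4, Utf1 and Lin28a were listed at 0 in both. Every MEF value lay below every 2i value. All 6 genes passed the filter on low values through the ESC libraries and so had to differ, and the levels are given as a description. The log2 difference of MEF against 2i was −10.70 for Pou5f1 and −7.55 for Sox2. It was −1.55 for Lin28b, or −3.91 with a pseudocount of 0.1 RPKM. The 2i-MEF library stood at 0.244 RPKM for Pou5f1, 0.733 RPKM for Sox2, 0.0175 RPKM for Sall4, 0.0603 RPKM for Utf1 and 0.0119 RPKM for Lin28b, and Lin28a was listed at 0. All of these lie under 1 RPKM in both fibroblast groups, and no difference between 2i-MEF and MEF is read from them.

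XX lines of the MSM cross stood 1.21 lower for Utf1 than XY lines (SE 0.13, adjusted p = 0.0046), the 1 call among the 6 genes, where 1% of all genes were lower. Lin28a gave −0.87 over 2i and S lines (adjusted p = 0.10) and passed when only 2i lines were read (−1.24, adjusted p = 0.035). Both readings were added after the data were seen, and that of 2i lines alone rests on 2 XX and 2 XY lines. The share of all genes called in 2i lines alone was not counted. In 2i Lin28a averaged 29.7 RPKM in XX and 71.0 RPKM in XY lines, without overlap. Lin28b did not pass (−0.25, 95% interval −0.65 to 0.16), nor did Sox2 (0.14, 95% interval −0.23 to 0.51).

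Between the crosses, in 2i, Lin28b stood at 1.41 to 2.52 RPKM in the MSM cross and at 0.376 to 1.01 RPKM in the B6 cross, without overlap. It was 0.86 higher in the MSM cross (SE 0.13, adjusted p = 0.0011), or 1.5 with a pseudocount of 0.1 RPKM. Sox2 stood at 206 to 281 RPKM in the MSM cross and at 135 to 219 RPKM in the B6 cross, a difference of 0.47 (SE 0.10, adjusted p = 0.0064) between groups that overlapped. Lin28a stood at 24.4 to 77.2 RPKM in the MSM cross and at 11.1 to 50.4 RPKM in the B6 cross, also overlapping. Its difference of 0.82 (adjusted p = 0.025) was lost without any of lines 2, 20, 23, c4 and c6 (0.62 to 0.86). With 3 of the 6 genes higher, the share of all genes higher in the MSM cross was 10.3%. The fall of Utf1 against serum medium was smaller in the MSM than in the B6 cross, by 0.67 (SE 0.20, adjusted p = 0.044). It was the 1 call among the 6 genes, where 9.47% of 13330 genes were higher, and it was lost without any of lines 15, 23, 8, 12, c3, c4, c6, 16, 17 and 46 (0.58 to 0.72). The crosses differ in strain. The labels do not say whether the lines of both crosses were made at the same time and in the same way. Strain and any such difference therefore cannot be told apart.

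Lin28a and Lin28b rose and fell together from library to library, but their ratio was not constant. Pearson's r of their log2 levels was 0.94 over the 23 ESC libraries, and the ratio of Lin28a to Lin28b RPKM ran from 17.3 to 49.9. In the B6 cross it was 29.5 to 49.9 in 2i and 18.9 to 25.5 in t2i, without overlap. The ratios in a2i and serum overlapped those in 2i. The ratio was lowest in the MSM 2i XX lines (17.3 and 17.6) and highest in the B6 2i XY lines (45.0 and 49.9). Utf1 correlated at 0.80 with Lin28a and at 0.71 with Lin28b. The r of Pou5f1 with the other 5 genes lay between −0.14 and 0.01. Libraries share medium, cross and sex, so these values describe the libraries and carry no test.

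**Figure D4:**
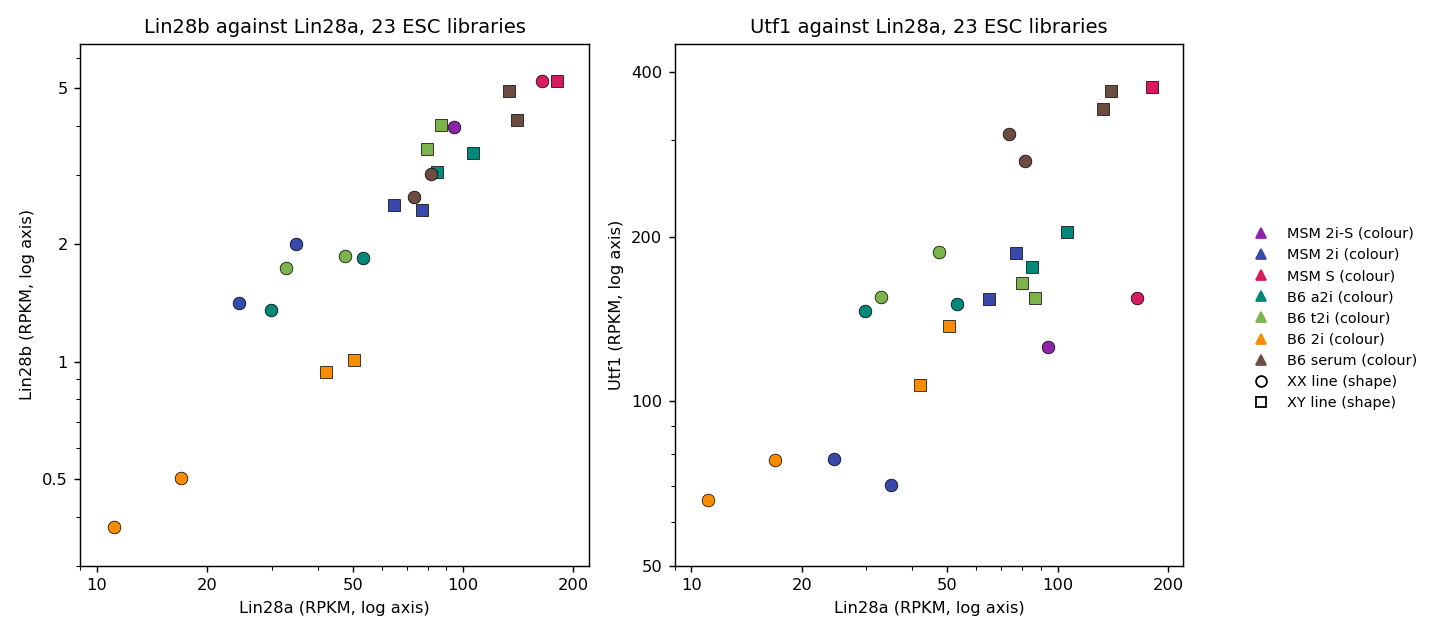
RPKM of Lin28b against Lin28a (left) and of Utf1 against Lin28a (right) in the 23 ESC libraries, on log axes; colour gives cross and medium, circles XX and squares XY lines. Lin28a and Lin28b lie along 1 band from the B6 2i XX lines (11.1 and 0.376 RPKM in c4) to the MSM S lines (181 and 5.21 RPKM in line 12), and S XX line 8 lies apart on the right, at 155 RPKM of Utf1.

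Among 11556 genes compared over the 23 ESC libraries, the gene most like Lin28a in level was Slc7a7, an amino acid transporter subunit (r = 0.95), which was also the gene most like Lin28b (r = 0.93). Slc7a7 ran from 3.00 to 221 RPKM. Isyna1 and Jade2 followed for Lin28a (r = 0.94 and 0.93), and Jade2 and Mtap7d3 for Lin28b (r = 0.92 and 0.91). Those most like Utf1 were Tns2 (r = 0.92), Spry1, which encodes an inhibitor of growth factor signalling to ERK (r = 0.91), and Aplp1 (r = 0.91). For Sox2 they were 1190002N15Rik, Smc6 and Carnmt1 (r = 0.87, 0.87 and 0.85), for Sall4 Ddx42, Smek1 and Lcmt2 (r = 0.80 each) and for Pou5f1 Frg1, Birc5 and Ndufa9 (r = 0.75, 0.73 and 0.73).

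Of 15 other pluripotency genes, 6 were higher and 4 lower in 2i than in serum (5 and 5 after quantile normalization). Of all genes 16.8% were higher and 30.7% lower (29.5% and 21.0% after quantile normalization), and the list had a median of 0.17 beside −0.09 over all genes. Tdh, a threonine dehydrogenase, rose by 0.97 and Fbxo15 by 0.96, while Klf4, a naive pluripotency factor, fell by 1.0 and Tdgf1, a Nodal co-receptor gene, by 0.93. Tdgf1 was the only 1 of the 15 to rise in t2i against 2i (0.81, adjusted p = 0.0035), and it rose in a2i too (0.97, adjusted p = 6.0e-04), as Utf1, Lin28a and Lin28b did. In a2i against 2i Klf4 also rose (0.61, adjusted p = 0.042), while Gdf3 fell by 0.56 and Nr0b1 by 0.44. In XX lines, 8 of the 15 were higher and 3 lower than in XY lines (21.4% and 20% of all genes), with a median of 0.34 beside −0.01 over all genes. Dppa2 rose by 1.05 and Nanog by 0.96 in XX lines, the opposite direction to Utf1, Lin28a and Lin28b.

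**Figure D5:**
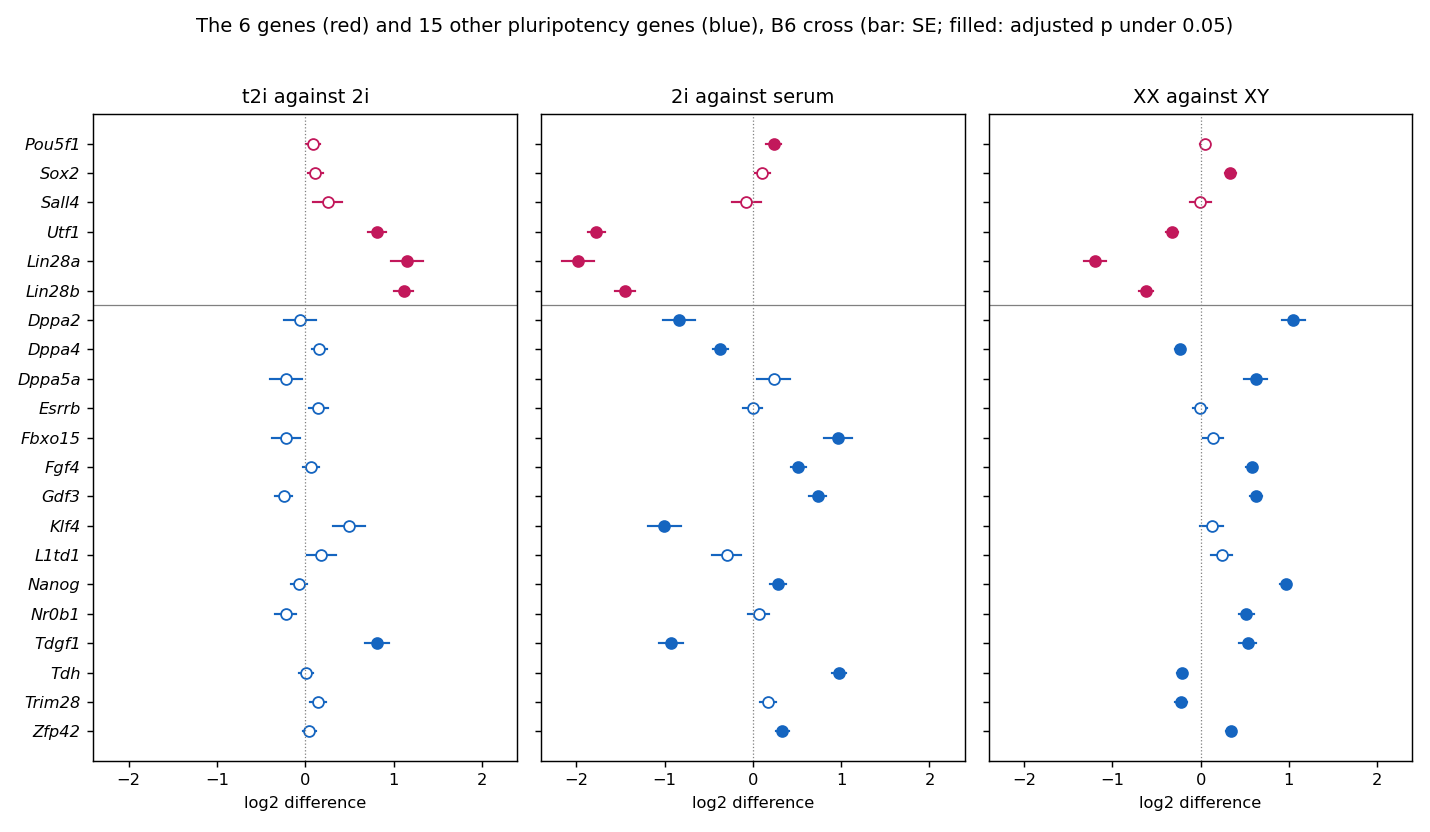
Log2 differences in the B6 cross of the 6 genes (red, above the line) and of 15 other pluripotency genes (blue), for t2i against 2i, 2i against serum and XX against XY; bars are SE and filled points have an adjusted p under 0.05. In t2i against 2i the filled points are Utf1, Lin28a, Lin28b and Tdgf1 (0.81, 1.15, 1.12 and 0.81). The pseudocount of 1 RPKM understates the Lin28b value. In mean RPKM, t2i was at 2.05 times 2i for Lin28a and 3.94 times for Lin28b.

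Among 16 genes of the Lin28 and let-7 pathway, 2 were higher and 6 lower in 2i than in serum (3 and 4 after quantile normalization; median −0.18). These counts are near the shares over all genes given above. Mycn, a let-7 target that drives growth, fell by 0.80 (adjusted p = 3.4e-04), and Dgcr8, of the microRNA processing complex, rose by 0.47. Hmga2, a chromatin protein gene and classic let-7 target, stood at −1.18. It is at 155 to 196 RPKM in MEF and at 10.1 to 15.9 RPKM in B6 serum, so that removing the fibroblast share leaves none of its serum level, and no direction is drawn from it. In t2i against 2i 1 of the 16 rose, Mycn (0.53, adjusted p = 0.032), where 4.19% of all genes did. In a2i Dicer1 rose (0.41, adjusted p = 0.033) and Igf2bp3 fell by 0.34 (adjusted p = 0.024), where 7.94% of all genes rose and 5.85% fell. In XX against XY lines 3 rose and 5 fell, at shares over all genes of 21.4% and 20%. Hmga2 rose by 1.11, Igf2bp1 by 0.92 and Igf2bp2 by 0.68 in XX lines, where both Lin28 genes were lower, and Drosha, the nuclear microRNA processing enzyme gene, fell by 0.51. In the MSM cross, 2 were higher and 3 lower in 2i than in S (8.36% and 8.67% of all genes), with Mycn at −1.09 (adjusted p = 0.033).

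Of 12 relatives of the POU, SOX and SALL genes, 10 were tested, and 1 was higher and 7 lower in 2i than in serum, where 16.8% of all genes were higher and 30.7% lower. After quantile normalization 1 was higher and 4 lower, where 29.5% of all genes were higher and 21.0% lower. Sox4 fell by 2.36, Pou3f1, a POU factor of the later epiblast, by 1.42 and Sox11 by 0.77, while Sall3 rose by 1.30. Sox4 stood at 36.0 to 44.1 RPKM in MEF and at 6.82 to 9.54 RPKM in B6 serum. No Sox4 value with the fibroblast share removed is given, so the size of its fall against serum is not read. Sox11 then stood at −0.23 after quantile normalization (adjusted p = 0.17). Against 2i, Sox11 (0.58) and Sox15 (0.41) rose in t2i, and Sox11 (0.79), Sox4 (0.76) and Sox15 (0.55) rose in a2i, where Sall3 fell by 0.98. Pou3f1 (−2.44) and Sox4 (−2.05) were also lower in 2i than in S in the MSM cross. Of 11 NuRD complex genes, 3 were higher and 3 lower in 2i than in serum, by at most 0.55 (Hdac2). Of all genes, 16.8% were higher and 30.7% lower. In a2i and in t2i against 2i 0 passed in limma, with 1 and 2 genes at an unadjusted p under 0.05. The share of all genes at that unadjusted threshold was not counted, so nothing is read from the 1 and 2 genes.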

How the data were processed

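RNA of 26 libraries (TruSeq Stranded mRNA, per the labels' protocols) was read from 1 deposited table of RPKM values for 21942 loci, which the authors made. The submitters' processing notes name cutadapt 1.9.1, TopHat2 2.1.0, Bowtie2 2.2.5, Cufflinks 2.2.1 and mm10, without their roles. Starts in the table were raised by 1 base, since 7101 RefSeq starts lie 1 base after the deposited start and 567 equal it. All columns belonged to a sample.

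Values were taken as log2(RPKM + 1), so fold changes of low genes are understated. Genes that reached 1 RPKM in 2 or more of a fit's libraries were tested in limma 3.58.1 (R 4.3.3) with a trended variance and Benjamini-Hochberg adjustment over all of them, two-sided, and called at an adjusted p under 0.05. The B6 fit had 16 libraries in 8 groups of medium and sex (13150 genes, 8 residual degrees of freedom), and a difference between its media averages that of XX lines and that of XY lines. The MSM fit had 10 libraries with a sex term among ESC (13443 genes, 4 residual degrees of freedom). A fit over both crosses had 14 libraries. The B6 and MSM fits were run on simulated data, and the fit over both crosses was not. The simulated data had independent normal noise and changes planted in 2i alone, with no effect of sex. The run therefore does not show that the calls hold in the real data. Each library comes from its own named line except those of line 15, and p-values measure the spread between lines. Intervals are 95% intervals from limma.

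The fibroblast share is the median, over 16 marker genes, of a library's level relative to the mean of MEF; its removal took that share of the MEF level off each gene, set values below 0 to 0 and divided the rest by 1 minus the share. The 6 genes, the 8 lists of 94 other genes and the tests were chosen with earlier results of these data known. From each list, up to 4 called genes with the largest change in a comparison are named, and for each of the 6 genes the 3 genes with the highest Pearson's r over the ESC libraries. Alternatives were a pseudocount of 0.1 RPKM, no filter, quantile normalization, no variance trend, removal of the fibroblast share, fits with fewer libraries or 1 sex and leaving out each library. The comparison of XX with XY lines in the MSM cross was added after seeing the data.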

Additional observations from a re-analysis of the deposited data

Results flagged for a closer look

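Utf1 differed between the crosses in how far it stood below serum medium. It fell by 1.10 in 2i against S in the MSM cross and by 1.77 in 2i against serum in the B6 cross. The test of the difference itself, MSM minus B6, gave 0.67 on the log2 scale (limma adjusted p = 0.044). It lost its call with no filter on low values (adjusted p = 0.057), without the variance trend (adjusted p = 0.065) and in 10 fits that each left out 1 library, of lines 15, 23, 8, 12, c3, c4, c6, 16, 17 and 46 (0.58 to 0.72). Only 2 S libraries, of 155 and 376 RPKM, stand behind the MSM value. Of 30 groups of 4 libraries, 0 held a library far from the rest.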

How the results depend on the processing

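Over all alternatives, 1834 values of single genes kept their direction and side of the threshold, 18 passed it anew, 45 lost it and 58 changed sign; the cause was not tested. With a pseudocount of 0.1 the Lin28b contrast of XX with XY lines turned to −0.34 for 2i against serum and to 0.0119 for a2i against 2i. After quantile normalization the Sox2 contrast of XX with XY lines for a2i against 2i was 0.0323, Lin28b in t2i against serum 0.0643, Sall4 in XX against XY lines 0.00878 and the Lin28b difference between crosses −0.0767. With the fibroblast share removed and the rest rescaled, Sox2 in 2i against serum was −0.0682. In XX lines alone Sox2 in t2i against 2i was −0.18 and Utf1 in a2i against t2i −0.20. In XY lines alone Pou5f1 was −0.17 in t2i against 2i and 0.21 in a2i against t2i, and Sox2 −0.21 in a2i against t2i.

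The number of the 6 genes called in a comparison moved by over 1.5 times as follows. Quantile normalization gave 1 (0 before) for the contrast of XX with XY lines in 2i against serum, and 2 (4 before) in t2i and in a2i against serum. The difference between crosses had 0 calls (1 before) with no filter and without the trend. XY lines alone gave 1 (3 before) in t2i against 2i and 2 (4 before) in a2i against serum. XX against XY in MSM 2i lines alone gave 2 (1 before). Leaving out a library gave 0 to 1 for the contrast of XX with XY lines in t2i against 2i, for 2i-S against 2i and for the difference between crosses, and 1 to 2 for XX against XY in the MSM cross.

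Leaving out a library turned the sign of these values, none of them called. For contrasts of XX with XY lines, Sall4 ran from −0.30 to 0.48 in 2i against serum, −0.55 to 0.22 in t2i against 2i and −0.44 to 0.33 in a2i against 2i. In a2i against 2i Pou5f1 ran from −0.0813 to 0.15 and Sox2 from −0.29 to 0.0146, and in 2i against serum Lin28b ran from −0.0265 to 0.17. In a2i against t2i, Sall4 ran from −0.0578 to 0.26, Utf1 from −0.0449 to 0.0908, Lin28a from −0.10 to 0.31, Pou5f1 from −0.0849 to 0.0301 and Sox2 from −0.0651 to 0.0887. Sall4 ran from −0.27 to 0.12 in 2i against serum, −0.10 to 0.10 in XX against XY lines of the B6 cross, −0.32 to 0.22 in those of the MSM cross, −0.15 to 0.26 in 2i against S and −0.0743 to 0.33 between crosses. Pou5f1 ran from −0.40 to 0.0143 in 2i against S and −0.0477 to 0.10 in 2i of the MSM against the B6 cross, and Lin28a from −0.47 to 0.64 between crosses.

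No paired analysis was possible because no groups compared share more than 1 line name; line 15 alone is in 2i, 2i-S and 2i-MEF. Depth is unknown, and with 2 lines per medium and sex the interactions and single libraries (2i-S, 2i-MEF) give wide intervals.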
